A study of Rattus norvegicus with 10 samples.

Results

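The milk genes considered here are the caseins Csn1s1, Csn1s2a, Csn2 and Csn3, the whey protein genes Wap and Lalba, and the secretory mucin gene Glycam1. Btn1a1 and Xdh, which encode coat proteins of the milk fat globule, complete the set. Members were the probe sets whose platform annotation gave 1 of these 9 symbols alone. They numbered 7 of the 31099 rows on the array, 1 for each of 7 genes. Csn1s2a and Btn1a1 had no such probe set and have no value here. All 7 passed the filter on low signal. They belong to the 23281 probe sets that were tested.

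The study followed 5 mammary tumors of female Sprague-Dawley rats, each induced by the carcinogen DMBA, given once by mouth at 100 mg/kg. Final samples (n = 5) were taken at 19 weeks of age, in the 7th week after biopsy, from tumors given adriamycin intravenously at 1 mg/kg per week for 6 weeks. Basal samples (n = 5) were needle biopsies of the same tumors, named by their codes, at 12 weeks of age before any drug, when a tumor had reached 2 cm3. Adriamycin (doxorubicin) is an anthracycline that poisons topoisomerase II, and all tumors, at both samplings, carried the DMBA exposure. Tumors of histological grade II had been picked for the arrays. The sample labels describe the final sample as total tumor, whereas the design text describes it as a needle sample. Without an untreated tumor at the later age, treatment, age, sampling and array run cannot be told apart. Whether any rat bore more than 1 of the tumors is not stated in the labels, and the p-values speak only of variation from tumor to tumor.

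Caseins are the phosphoproteins that package calcium phosphate into milk micelles, and kappa-casein coats the micelle surface. Alpha-lactalbumin, the product of Lalba, joins a galactosyltransferase to form lactose synthase. In lactation these genes are driven in alveolar cells by prolactin through JAK2 and the transcription factor STAT5, together with glucocorticoid and the ETS factor Elf5. Butyrophilin (Btn1a1) and xanthine oxidoreductase (Xdh) bind the lipid droplet protein Plin2 as the fat globule leaves the cell.

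Csn3, Csn1s2a, Csn2 and Csn1s1 lie in this order on rat chromosome 14 in the RefSeq annotation of GRCr8. Wap is on chromosome 14 outside that cluster, Lalba and Glycam1 are on 7, Xdh is on 6 and Btn1a1 on 17. The RefSeq promoter table held a window of 300 bases for all 9 members, 250 of them before the gene start. It was searched for TTCNNNGAA, the core to which STAT factors bind and which reads the same on both strands. The core was present in 4 of the 9 windows, and in 8.87% of all 33469 promoters in the table. The 4 matches are shown because Csn1s1 and Csn2, neighbours with a similar core, differed in their values below. Each line gives 80 bases, 5′ to 3′, on the strand of the gene, with the match in capitals.

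Csn1s1, chr14:20638905-20638984, minus strand: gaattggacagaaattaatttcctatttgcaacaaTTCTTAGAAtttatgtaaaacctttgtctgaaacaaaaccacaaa
Csn1s2a, chr14:20574529-20574608, minus strand: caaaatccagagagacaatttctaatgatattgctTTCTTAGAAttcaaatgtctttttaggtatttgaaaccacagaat
Csn2, chr14:20601692-20601771, plus strand: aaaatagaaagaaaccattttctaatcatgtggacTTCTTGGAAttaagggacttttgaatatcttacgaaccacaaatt
Glycam1, chr7:136561430-136561509, minus strand: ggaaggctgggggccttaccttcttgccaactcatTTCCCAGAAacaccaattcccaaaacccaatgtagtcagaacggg

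The first base of the core lay 100 bases before the gene start in Csn1s1, 102 in Csn1s2a and 97 in Csn2, against 175 in Glycam1. Lined up on the core without gaps, the Csn1s2a and Csn2 windows shared 46 of 80 bases. Csn1s1 shared 37 with Csn2 and 33 with Csn1s2a. Glycam1 shared 19 to 26 with the 3 caseins. A match describes the letters only.

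One array, the final one of tumor 09I1, differed from the rest. Its median correlation with the other arrays was 0.938, while the remaining 9 had 0.975 to 0.984. On it the 3' probe set for beta-actin exceeded the 5' one by 2.61 log2 units, compared with 0.72 to 0.96 on the others. Values without that tumor are given beside the changes of the milk genes and of the gene lists. All levels are on the log2 scale of the deposited normalized values, and levels of different probe sets are not compared. Array medians lay between 5.93 and 6.11, lower quartiles at or below 4.29 and maxima between 14.05 and 14.48. The tissue label was checked with 12 luminal epithelial markers, whose mean level was 10.03 to 10.66 on final arrays and 10.27 to 10.66 on basal arrays. None of these markers was below the lower quartile on all arrays, which does not show that each was detected on each array.

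Of the 7 milk genes, 5 were at a higher level in the final than in the basal sample in 4 of 5 tumors: Csn1s1, Csn3, Wap, Lalba and Xdh. Across all tested probe sets, 20.6% were higher in at least 4 tumors. The same 5 genes were higher in at least 3 of the 4 tumors without 09I1, for which the share over all probe sets was not counted. None of the 7 passed limma's test, in which the adjusted p was 0.966 to 0.995, and 0% of all tested probe sets passed it. With all 5 tumors, 3 of 7 were higher at an unadjusted p under 0.05 (Wap, Lalba and Xdh), against 1.71% of tested probe sets. Without 09I1 the number was also 3. It was 3 without 11D2 (Csn1s1, Lalba and Wap), but Wap alone remained when 12I1, 29I1 or 43D1 was left out. The number was 0 of 7 without the pairing by tumor, and also 0 of 7 with tumor as a random block. Over all 23281 tested probe sets, in either direction, 935 were under that p with all tumors. This became 1868 without 09I1, 608 without 11D2, 1076 without 12I1, 964 without 29I1 and 685 without 43D1. It was 955 without the pairing and 957 with the random block. The group ranges overlapped for all 7 genes. Of all tested probe sets, 1.16% had groups that did not overlap. In such bulk samples a different number of secretory cells and a different amount of milk RNA per cell cannot be told apart.

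**Figure D1:**
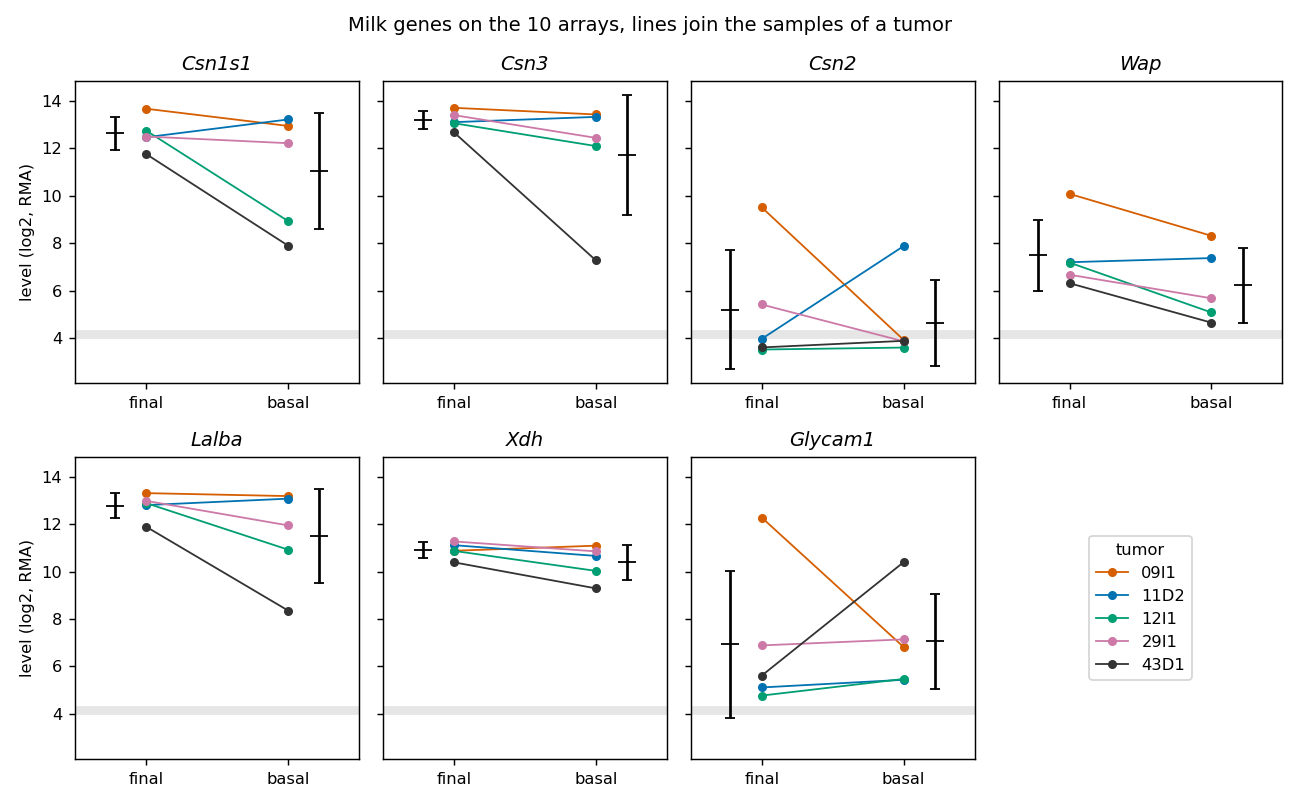
Log2 level (y axis) of the 7 milk genes on each array, final at left and basal at right, with a line joining the samples of each tumor, black bars for mean ± SD (n = 5) and a grey band for the range of lower quartiles. Csn1s1, Csn3 and Lalba spanned 7.28 to 13.44 on basal arrays but 11.77 to 13.72 on final arrays, while Csn2 and Glycam1 each had 1 high array per group.

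Csn1s1, the alpha-S1 casein gene, was at 13.68 (09I1), 12.47 (11D2), 12.76 (12I1), 12.51 (29I1) and 11.77 (43D1) in the final samples. Basal levels were 12.95 (09I1), 13.22 (11D2), 8.94 (12I1), 12.22 (29I1) and 7.90 (43D1). The 2 low basal arrays were those of 12I1 and 43D1, and no final array was comparably low. The mean was 12.64 ± 0.69 in final and 11.05 ± 2.45 in basal samples (SD, n = 5 each). The log2 change, final minus basal, was 1.59 ± 0.72 (SE), positive in 4 of 5 tumors, with limma adjusted p = 0.977. Leaving out 09I1 gave 1.80, whereas leaving out 12I1 gave 1.03 and leaving out 43D1 gave 1.02.

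Csn3, which encodes kappa-casein, was at 13.72 (09I1), 13.11 (11D2), 13.07 (12I1), 13.41 (29I1) and 12.68 (43D1) in the final samples. Basal samples gave 13.44 (09I1), 13.33 (11D2), 12.10 (12I1), 12.45 (29I1) and 7.28 (43D1). Only the basal array of 43D1 was far from the rest. The mean was 13.20 ± 0.39 in final and 11.72 ± 2.55 in basal samples (SD, n = 5 each). The change was 1.48 ± 0.76 (SE), with limma adjusted p = 0.977, and it was 0.50 without 43D1 and 1.78 without 09I1. On the final arrays Csn3 stood at the 99.5th percentile or above of the array's values, and on the basal array of 43D1 at the 63.3rd.

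Csn2 encodes beta-casein, a major casein of rodent milk. Its probe set was at 9.52 (09I1), 3.97 (11D2), 3.52 (12I1), 5.42 (29I1) and 3.61 (43D1) in the final samples. Its basal levels were 3.92 (09I1), 7.88 (11D2), 3.60 (12I1), 3.87 (29I1) and 3.89 (43D1). It thus lay below the array's lower quartile on 3 of 5 final and 4 of 5 basal arrays, where differences have no firm size. The 2 high arrays, final 09I1 and basal 11D2, belonged to different tumors and different samplings. The change was 0.57 ± 1.16 (SE), positive in 2 of 5 tumors, with limma adjusted p = 0.977. Without 09I1 it was -0.68, and without 11D2 it was 1.70.

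Wap encodes whey acidic protein, a major whey protein of rodents. It was at 10.09 (09I1), 7.20 (11D2), 7.19 (12I1), 6.68 (29I1) and 6.32 (43D1) in the final samples. The basal values were 8.32 (09I1), 7.38 (11D2), 5.08 (12I1), 5.68 (29I1) and 4.65 (43D1). Tumor 09I1 held the highest value in both groups. The mean was 7.49 ± 1.50 in final and 6.22 ± 1.56 in basal samples (SD, n = 5 each). The change was 1.27 ± 0.33 (SE), positive in 4 of 5 tumors, with an unadjusted p of 0.00625 and limma adjusted p = 0.966. It was 1.15 without 09I1 and 1.17 without 43D1.

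Lalba was at 13.31 (09I1), 12.81 (11D2), 12.89 (12I1), 12.98 (29I1) and 11.89 (43D1) in the final samples. Basal levels were 13.19 (09I1), 13.08 (11D2), 10.93 (12I1), 11.95 (29I1) and 8.36 (43D1). Its array order followed that of Csn1s1 at the low end, with basal 43D1 lowest and basal 12I1 next. The mean was 12.78 ± 0.53 in final and 11.50 ± 1.98 in basal samples (SD, n = 5 each). The change was 1.28 ± 0.52 (SE), with an unadjusted p of 0.0433 and limma adjusted p = 0.977. It was 1.57 without 09I1 and 0.71 without 43D1.

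Xdh encodes xanthine oxidoreductase, an enzyme of purine breakdown that also serves as a structural protein of the fat globule membrane. It was at 10.88 (09I1), 11.12 (11D2), 10.87 (12I1), 11.27 (29I1) and 10.39 (43D1) in the final samples. Basal samples gave 11.09 (09I1), 10.66 (11D2), 10.03 (12I1), 10.85 (29I1) and 9.29 (43D1). The span was smaller than for the other members, and the exception among the tumors was 09I1 and not 11D2. The change was 0.52 ± 0.20 (SE), with an unadjusted p of 0.0320 and limma adjusted p = 0.977. Without 09I1 it was 0.70, positive in all 4 remaining tumors, with limma adjusted p = 0.466.

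Glycam1 encodes a secreted mucin of milk that is also made by high endothelial venules of lymph nodes, where it binds L-selectin. It was at 12.28 (09I1), 5.11 (11D2), 4.77 (12I1), 6.89 (29I1) and 5.61 (43D1) in the final samples. Its basal levels were 6.82 (09I1), 5.44 (11D2), 5.47 (12I1), 7.14 (29I1) and 10.40 (43D1). The basal array of 43D1, lowest for 5 of the other milk genes, was the highest basal array for Glycam1. The mean was 6.93 ± 3.10 in final and 7.05 ± 2.02 in basal samples (SD, n = 5 each). The change was -0.12 ± 1.23 (SE), positive in 1 of 5 tumors, with limma adjusted p = 0.995. It was -1.52 without 09I1 and 1.05 without 43D1.

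Markers of high endothelial venules and lymphoid follicles had been listed beside Glycam1, since that gene is not restricted to mammary cells. Only 5 of 13 had a tested probe set, and the venule genes Chst4, Fut7 and Madcam1 were not among them. The mean level of the 5 was 5.31 to 6.65 on final arrays and 5.14 to 7.03 on basal arrays. It was 6.18 on the final and 5.14 on the basal array of 09I1, and 6.65 on the final and 5.60 on the basal array of 43D1. In 43D1 the mean of the list and Glycam1 therefore differed in opposite directions. There 4 of the 5 genes were higher, with Cxcl13 at 3.37, while Ackr1 was at -0.65, on the side of Glycam1. Ackr1 was at 0.64 in 09I1, where 4 of the 5 genes were higher, as Glycam1 was. Without 09I1 the list's median change was -0.14. Ccl21, a chemokine of these venules, differed by 4.73 in 09I1, where Glycam1 differed by 5.46, but Cxcl13 differed there by -0.75 and Ccl19 by 0.062. In 29I1 Ccl21 differed by -4.93 and Glycam1 by -0.25, and in 43D1 Ccl21 differed by 1.50 and Glycam1 by -4.79. The likeness of Ccl21 and Glycam1 across tumors was not computed. The part of such cells in the Glycam1 level was not tested.

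Within single tumors the milk genes moved by very different amounts, and a difference of at least 1 log2 unit was counted. In 43D1, 5 of 7 members were that much higher in the final sample, namely Csn3 (5.40), Csn1s1 (3.86), Lalba (3.54), Wap (1.66) and Xdh (1.10). In that tumor 3.05% of all tested probe sets were that much higher. Glycam1 was lower there by 4.79, while 4.08% of probe sets were at least 1 unit lower.

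In 12I1, 3 members were at least 1 unit higher, namely Csn1s1 (3.82), Wap (2.11) and Lalba (1.97), and none lower. The background in 12I1 was 1.84% higher and 1.89% lower. In 29I1, Csn2 (1.55) and Lalba (1.03) were past that size and none was lower, with 1.66% of probe sets higher and 4.39% lower. The remaining 2 tumors differed from these 3. In 11D2 no member was 1 unit higher and Csn2 (-3.92) was lower, against 2.84% higher and 1.42% lower. In 09I1, with the array that stood apart, Csn2 (5.59), Glycam1 (5.46) and Wap (1.77) were higher and none was lower. In this tumor 8.93% of probe sets were at least 1 unit higher and 12.6% lower, so both shares were above those of the other tumors. The Csn2 differences in 29I1, 11D2 and 09I1 each had a sample below the lower quartile of its array, so their sizes are not firm.

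**Figure D2:**
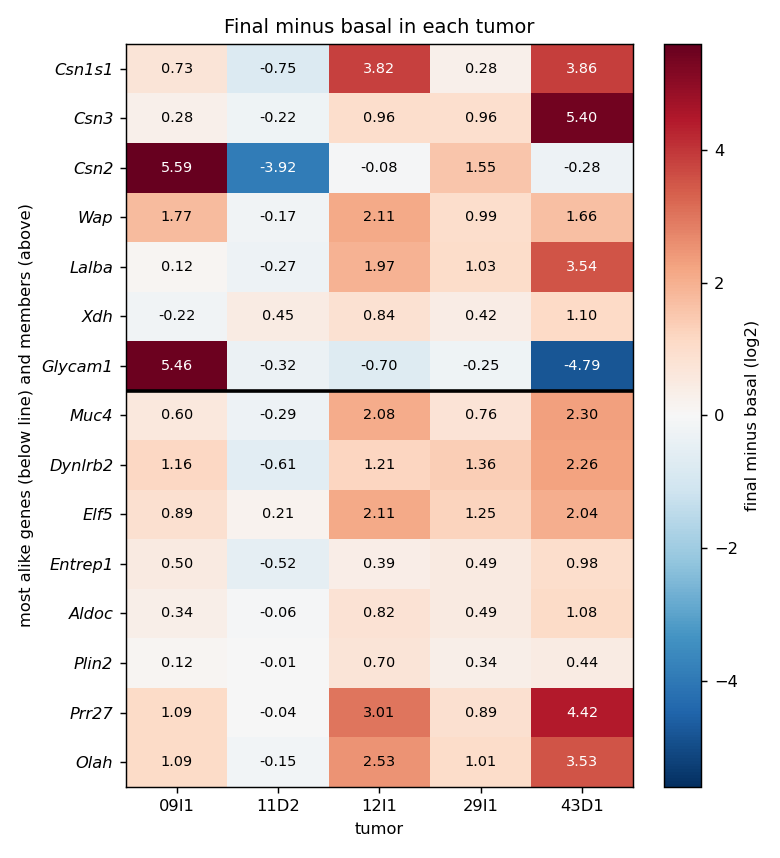
Final minus basal log2 difference in each of the 5 tumors (columns) for the 7 milk genes (above the line) and the 8 other genes most like their mean over the 10 arrays (below it), red for higher in the final sample. The columns of 12I1 and 43D1 hold the large differences of Csn1s1, Lalba, Prr27 and Olah, and 11D2 is near or below 0 for most genes.

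The median change over the 7 members was 1.27, with 6 positive and 1 negative, against 0.014 over all 12255 tested genes. By tumor the members' median was 0.73 (09I1), -0.27 (11D2), 0.96 (12I1), 0.96 (29I1) and 1.66 (43D1). The all-gene medians lay between -0.038 and 0.15. Without 09I1 the members' median was 1.15, with 5 of 7 positive, and without 43D1 it was 0.79, with 7 of 7 positive. This list was chosen with results of these arrays known, so its median is a description.

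The milk genes were among the most variable on these arrays. The SD over the 10 arrays was 2.47 for Glycam1, 2.10 for Csn2, 1.89 for Csn1s1, 1.88 for Csn3, 1.59 for Wap and 1.52 for Lalba. The median tested probe set had an SD of 0.30. Of the 23281 tested probe sets, 6 had a larger SD than Glycam1 and 98 a larger one than Lalba. Xdh was less variable, with an SD of 0.60, which 13.4% of probe sets exceeded. The SD of Csn1s1, Csn3, Lalba and Xdh was smaller in final than in basal samples (0.33 to 0.69 in final, 0.73 to 2.55 in basal). Wap had an SD of 1.50 in final and 1.56 in basal samples. Csn2 and Glycam1 had the larger SD in final samples (2.53 and 3.10, against 1.82 and 2.02 in basal). On final arrays Csn1s1, Csn3 and Lalba stood at the 98.8th percentile or above of the array's values. The differences in spread were not tested.

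The members did not all vary together. Csn1s1, Csn3, Wap, Lalba and Xdh shared the same 2 lowest arrays, basal 43D1 and basal 12I1. Over the 10 arrays, Pearson's r was 0.96 for Csn3 with Lalba, 0.95 for Csn1s1 with Lalba and 0.93 for Lalba with Xdh. The lowest r within these 5 was 0.64, for Wap with Xdh, and it was 0.79 without the arrays of 09I1. Csn2 followed the others less closely, with r of 0.49 with its neighbour Csn1s1, and Glycam1 had r of -0.36 with Csn3 and 0.53 with Csn2. Without 09I1 (8 arrays) Glycam1 had r of -0.88 with Csn3 and -0.10 with Csn2. The arrays are pairs from 5 tumors, so these correlations are descriptions. The final array of 09I1 was the highest for 6 of the 7 members, the exception being Xdh.

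**Figure D3:**
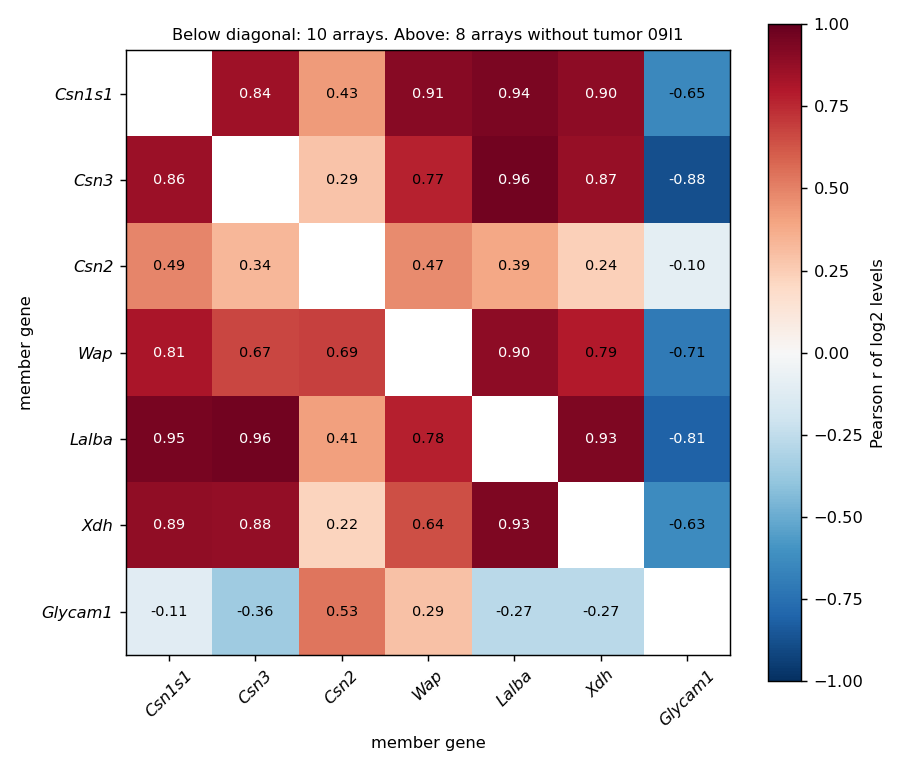
Pearson's r of log2 levels between the 7 milk genes, over 10 arrays below the diagonal and over the 8 arrays without tumor 09I1 above it. Csn1s1, Csn3, Wap, Lalba and Xdh form a red block of 0.64 to 0.96, and Glycam1 turns blue against all of them once 09I1 is left out.

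The genes most like the members were ranked by r with the mean of the members, each centred and scaled over the 10 arrays. Of 12248 other genes, the highest 8 were Muc4 (r = 0.97), Dynlrb2 (0.96), Elf5 (0.96), Entrep1 (0.95), Aldoc (0.95), Plin2 (0.95), Prr27 (0.94) and Olah (0.94). Without 09I1 the r of these 8 genes was 0.92 to 0.98. Muc4 encodes a membrane mucin, Olah the thioesterase that ends fatty acid synthesis at medium chain length in rat mammary gland, and Plin2 the protein that coats milk lipid droplets.

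Prr27, a proline-rich protein gene, lies between Csn3 and Csn1s2a in the casein cluster and was the only non-member measured there. It was at 12.20 (09I1), 11.24 (11D2), 10.65 (12I1), 11.25 (29I1) and 10.14 (43D1) in the final samples. The basal values were 11.11 (09I1), 11.27 (11D2), 7.64 (12I1), 10.35 (29I1) and 5.71 (43D1). Its 2 lowest arrays were thus basal 43D1 and basal 12I1, as for Csn1s1 and Csn3 but not for Csn2. Its change was 1.88 ± 0.61 (SE), positive in 4 of 5 tumors, with limma adjusted p = 0.977.

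Elf5, the ETS factor of alveolar cells, had r of 0.96 with Csn1s1, 0.93 with Lalba, 0.86 with Wap and -0.00042 with Glycam1 over the 10 arrays. Without the arrays of 09I1 these were 0.95, 0.93, 0.93 and -0.59. The change of Elf5 was 1.30 ± 0.30 (SE), positive in 5 of 5 tumors, with limma adjusted p = 0.850. The receptor gene Prlr had a change of 0.28, Stat5a one of -0.30 and Stat5b one of -0.037. In 09I1 the difference was -0.82 for Prlr, -2.01 for Stat5a and -1.37 for Stat5b. Without that tumor the changes were 0.56 for Prlr, 0.12 for Stat5a and 0.30 for Stat5b. None of these changes passed the test. With the mean of the members, r was 0.35 for Stat5a, 0.10 for Stat5b and -0.33 for Prlr over the 10 arrays. Without the arrays of 09I1 it was 0.80 for Stat5a, 0.80 for Stat5b and -0.14 for Prlr.

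Other genes of milk production gave smaller shifts as lists, and no gene of any of them passed the test over all probe sets. Of 13 tested genes for other milk proteins, 10 had positive and 3 negative mean changes, with a median of 0.21 that was also 0.21 without 09I1 and was -0.026 without 43D1. Olah had the largest, 1.60 ± 0.49 (SE). Its level was 11.05 on average in final and 9.45 in basal samples, with limma adjusted p = 0.977. Cel, a milk lipase, had a change of 0.54 (0.21 without 09I1). Folr1, a folate receptor, had one of 0.41 and Plin2 one of 0.32.

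Lactose synthesis and secretory transport had 5 positive and 8 negative changes among 13 genes, with a median of -0.091. Without 09I1 the median was 0.043, with 7 positive and 6 negative. The phosphate carrier Slc34a2 was at 0.90, the water and glycerol channel Aqp3 at -0.95, the hexokinase Hk2 at -0.50 and the glucose carrier Slc2a1 at -0.36. The last 3 are on the other side of 0 from Lalba, also without 09I1 (Aqp3 -0.93, Slc2a1 -0.42 and Hk2 -0.38). Aqp5, with the largest change of the list, was on the side of Lalba at 1.43 ± 0.93 (SE), and at 2.33 without 09I1.

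The prolactin, STAT5 and alveolar list had 8 positive and 12 negative changes among 20 genes, with a median of -0.064 that was 0.20 without 09I1. Besides Elf5, the growth hormone receptor gene Ghr was at 0.87 and Id2 at 0.71, both positive in 5 of 5 tumors. The ETS factor gene Ehf was at 0.64. The second Ghr probe set was at -0.038. The milk lipid list had 9 positive and 12 negative changes among 21 genes, with a median of -0.13, and -0.061 without 09I1. Thrsp, a regulator of lipogenesis, was at 2.15 ± 0.60 (SE), positive in 5 of 5 tumors with limma adjusted p = 0.977, and the droplet protein gene Cidea was at 0.68. The elongase Elovl6 was at -0.50 and the desaturase Fads1 at -0.29.

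**Figure D4:**
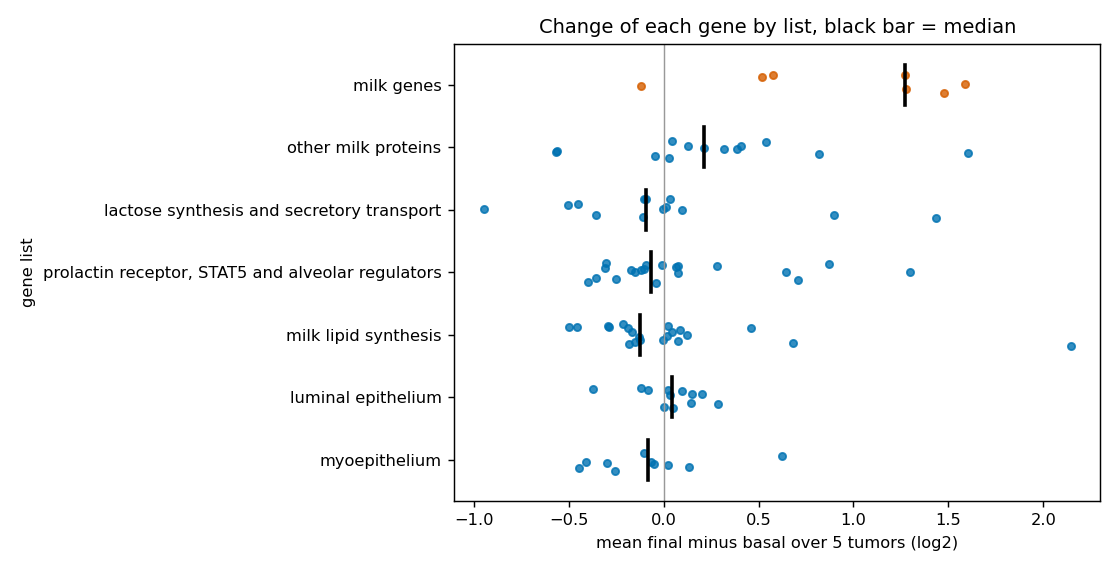
Mean final minus basal log2 change over the 5 tumors (x axis) of each tested gene, by list (y axis), with the list's median as a black bar. The milk genes have a median of 1.27, and the other 6 lists drawn have medians between -0.13 and 0.21. Lists not drawn are skeletal muscle (median 0.92), adipocyte (0.54), endothelium (0.021), lymphoid (-0.013), macrophage (-0.12) and cell cycle (-0.57).

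Markers of the cell types that the samples could hold were set beside the milk genes. The luminal epithelial list had a median change of 0.042, with 8 of 12 positive and Elf3 at 0.29, Cldn3 at 0.20, Cldn4 at 0.15 and Cdh1 at -0.37. Without 09I1 the median was 0.15, with 11 of 12 positive, and Cdh1 was at 0.083, its difference in 09I1 being -2.20. Its mean level on the basal array of 12I1, where Csn1s1 and Lalba were low, was 10.66, the highest of the 5 basal arrays. On the basal array of 43D1 it was 10.27, the lowest of the 5. The luminal medians by tumor were 0.0096 in 12I1, with 6 of 12 markers higher, and 0.26 in 43D1, with 11 of 12 higher. Csn1s1 differed by 3.82 in 12I1 and by 3.86 in 43D1.

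The myoepithelial list had a median of -0.085, with 3 of 10 positive, and a mean level of 9.99 to 10.81 on final and 9.89 to 11.16 on basal arrays. Its median was 0.089 without 09I1, and by tumor it ran from -0.85 in 43D1 to 1.05 in 29I1. Adipocyte genes had a median of 0.54, with 10 of 10 positive, and a mean level of 5.96 to 7.74 on final and 5.82 to 7.32 on basal arrays. Tumors differed, with an adipocyte median of 1.62 and 10 of 10 higher in 11D2, but -0.80 and 1 of 10 higher in 29I1. Without 09I1 the list was at 0.44, with 9 of 10 positive. Adipoq, which encodes adiponectin, was at 1.06, and at 0.63 without 09I1. The lymphoid list described beside Glycam1 had a median of -0.013, and that of endothelium was 0.021, with 6 of 9 positive, and 0.054 without 09I1. Macrophage genes had a median of -0.12, with 3 of 10 positive and a mean level of 8.48 to 9.45 on final and 8.18 to 9.95 on basal arrays. The macrophage median was 0.0079 without 09I1, with 5 of 10 positive. Skeletal muscle genes had a median of 0.92, with 9 of 9 positive, which rested on 11D2, the tumor in which most milk genes were not higher. Their median was 4.65 in 11D2 and -0.19 to 0.58 in the other tumors. Without 11D2 it was 0.16, with 7 of 9 positive, and without 09I1 it was 1.00. No marker list had a member below the lower quartile on all arrays, which does not show that each marker was detected on each array.

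Cell cycle genes had a median of -0.57, with 0 of 10 positive, -1.08 without 09I1 and -0.093 without 43D1, when 3 of 10 were positive. In the tumors with the large milk gene differences that list's median was 0.26 in 12I1 and -2.38 in 43D1, so its sign differed between them. The macrophage median was -0.81 in 12I1 and 1.21 in 43D1. The part of these cell types and of proliferation in the milk gene levels was not tested.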

How the data were processed

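Total RNA from 10 tumor samples (5 final, 5 basal) was measured on Affymetrix Rat Genome 230 2.0 arrays. The deposited values are log2 intensities that the authors had normalized by robust multichip averaging, per the labels and the design text, which also name a paired test in GeneSpring GX 7.3. The stated filter on control and low signals was not applied to this table, which held 31099 rows and 57 control probe sets. No depth or detection call exists for it, and the number of arrays limits precision. The file names no genome build, so RefSeq GRCr8 gave chromosomes, gene order and promoters only. All 9 members matched its promoter table.

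Here, control probe sets and the 25% of others with the lowest mean were left out. Final minus basal was fitted over all 23281 remaining probe sets with limma 3.58.1 (R 4.3.3), tumor as a fixed block, an intensity trend and Benjamini-Hochberg adjustment at 0.05. The fit was run on simulated data with independent normal noise and no array apart from the rest. That check does not show how often changes of the size seen here would be found on these arrays. Genes were represented by their brightest tested probe set. The pairing comes from the labels' tumor codes. Correlations of paired deviations from the group means were -0.15 to 0.22. All member probe sets, Prlr, Stat5a, Stat5b, Elf5 and the 8 most alike genes were named. Genes of the lists were named from the 4 with the smallest p in each, and not all of these were given. Adipoq alone was named of the adipocyte list, and no gene of the myoepithelial, endothelial, macrophage, skeletal muscle and cell cycle lists. Members and lists were chosen with earlier results of these data known. Prr27's place in the casein cluster was noticed afterwards, and Aqp5 was added afterwards for the size of its change. Figures used matplotlib 3.10.9.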

Additional observations from a re-analysis of the deposited data

Results flagged for a closer look

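Sets of 5 values of each milk gene (final levels, basal levels and differences) were checked for a sample far from the other 4. In independent, normally distributed values one is found in about 1 of 20 sets. The sets here overlap in arrays, and how often all tested probe sets have one was not counted. No excess over other genes can therefore be read from the count. Of 21 sets, 5 had one. In final samples these were Wap in 09I1, at 10.09 against 6.32 to 7.20 in the other tumors, and Glycam1 in 09I1, at 12.28 against 4.77 to 6.89. Both come from the array that stood apart. In basal samples these were Csn2 in 11D2, at 7.88 against 3.60 to 3.92, and Csn3 in 43D1, at 7.28 against 12.10 to 13.44. The final minus basal difference of Csn3 in 43D1, which contains that same basal value, was 5.40, against -0.22 to 0.96 in the other tumors.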

How the results depend on the processing

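Beside leaving out the block, the block was made random, the filter was dropped or raised to the lowest 50%, and the other settings were cyclic loess, centring on array medians, array weights, no intensity trend, the methods' paired t-test and each tumor left out. Under all 14 alternatives, 0 probe sets and 0 milk genes passed at an adjusted p under 0.05. The number at an unadjusted p under 0.05 was 935 as reported, 465 with the lowest 50% left out, 608 without 11D2, 1868 without 09I1 and 2440 with array weights, and 685 to 1280 under the others. The changes of Csn1s1, Csn3, Wap, Lalba and Xdh were positive under the 8 alternatives that can move a mean change. The other 6 leave it as it is by construction. Csn2 and Glycam1 turned sign. Csn2 was at -1.43 with array weights and between -0.68 and 1.70 with 1 tumor left out. It was not tested with the lowest 50% left out. Glycam1 was between -1.52 and 1.05 with 1 tumor left out. The members' median ran from 0.79 (array weights, and without 43D1) to 1.66 (without 11D2). Without the pairing by tumor (no replicate block) the change of Wap was 1.27 with a limma unadjusted p of 0.157, against 0.00625 with tumor as a fixed block. With tumor as a random block its limma unadjusted p was 0.156. Under the random block and without a block, 0 milk genes had an unadjusted p under 0.05. The methods' paired t-test gave 1 (Wap) and array weights 1 (Xdh), against 3 as reported. With array weights Xdh had its lowest adjusted p among the 14, 0.225. Csn2 lay below the lower quartile on most arrays, which limits its values.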

Other observations

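Wfdc18, a gene of the whey acidic protein domain family, was singled out after its values had been seen. It was at 8.59 (09I1), 5.68 (11D2), 5.18 (12I1), 8.83 (29I1) and 8.56 (43D1) in the final samples. Basal levels were 4.73 (09I1), 4.38 (11D2), 11.45 (12I1), 7.53 (29I1) and 4.65 (43D1). In 12I1, where Csn1s1, Wap and Lalba were higher in the final sample, Wfdc18 was lower there by 6.27 log2 units, and in 43D1 it was higher by 3.91. Its mean change was 0.82 ± 1.40 (SE, 5 tumors), with limma adjusted p = 0.977, and 0.059 without 09I1.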
